A study of Mus musculus with 2 samples.

Results

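The chemokines Cxcl1, Cxcl2, Cxcl14, Cxcl16, Cxcl17, Ccl20, Ccl27a and Ppbp and the cytokine Tnf were followed through the dissociated corneal epithelium of mice with experimental dry eye and of control eyes. The 9 genes were chosen by name as secreted signals of the immune system, and all 9 were among the 17891 genes counted. Each was described by its unique molecular identifier (UMI) counts per cell class and library, and by the share of its counts that lay in the 10 highest cells.

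The dry eye library pooled 6 right eyes of 10-week-old male C57BL/6J mice, taken 9 days after the extra- and intra-orbital lacrimal glands of that side had been removed, with an injured eye left out. The control library pooled 7 left eyes. Both pools came from the same 7 mice, so the side of the eye goes with the treatment and cannot be told apart from it. The epithelial sheet was freed with an enzyme and separated with trypsin, and 1 library of the Chromium 3′ kind was made per pool. With 1 library per group no difference can be tested against the spread between animals. All intervals below are exact 95% intervals, and what a count of 0 allows is given as 3 counts of the total, a plainer and slightly tighter limit; both cover counting error only.

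Chemokines are small secreted proteins that draw leukocytes along a gradient by way of receptors on the target cell. Cxcl1, Cxcl2 and the processed form of Ppbp act on Cxcr2 of neutrophils, Ccl20 on Ccr6, Ccl27a on Ccr10, and Cxcl16, which is made as a membrane protein and shed, on Cxcr6. Tnf is likewise shed from the membrane, binds Tnfrsf1a and Tnfrsf1b, and switches on genes by NF-kB, among them Cxcl1, Cxcl2, Ccl20 and the feedback inhibitors Nfkbia and Tnfaip3.

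Cxcl1, Cxcl2 and Ppbp lie in 1 stretch of mouse chromosome 5 (GRCm38, GENCODE gene bounds), Ppbp at chr5:90768518-90770063, Cxcl1 at chr5:90891241-90893115 and Cxcl2 at chr5:90903871-90905938, all on the plus strand. Ccl20 lies at chr1:83116766-83119167 on the plus strand and Tnf at chr17:35199381-35202007 on the minus strand. The 150 bases before the transcription start of these 5 genes are shown (RefSeq, GRCm38.p6, read 5′ to 3′ on the gene's strand). Cxcl1, Cxcl2, Ccl20 and Tnf are shown because their counts were high in the same control cells. Ppbp is shown because Cxcl1 and Cxcl2 of the same stretch went the other way over all cells. Capitals mark a match to the NF-kB consensus site.
Cxcl1: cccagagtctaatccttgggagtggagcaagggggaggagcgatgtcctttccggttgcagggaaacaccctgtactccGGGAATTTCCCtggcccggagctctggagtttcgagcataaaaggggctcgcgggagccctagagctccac
Cxcl2: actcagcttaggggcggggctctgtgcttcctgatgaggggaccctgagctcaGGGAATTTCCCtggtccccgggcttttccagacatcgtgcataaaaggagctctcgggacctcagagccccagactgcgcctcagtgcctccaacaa
Ccl20: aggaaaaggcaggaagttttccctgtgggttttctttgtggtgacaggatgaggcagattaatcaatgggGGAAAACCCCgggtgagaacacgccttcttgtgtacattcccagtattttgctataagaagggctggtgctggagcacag
Tnf: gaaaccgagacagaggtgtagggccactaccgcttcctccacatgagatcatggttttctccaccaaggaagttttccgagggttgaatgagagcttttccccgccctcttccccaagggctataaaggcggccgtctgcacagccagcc
Ppbp: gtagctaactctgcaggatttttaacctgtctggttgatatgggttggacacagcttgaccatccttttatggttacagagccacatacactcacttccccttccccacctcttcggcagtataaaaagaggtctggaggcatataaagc
The windows are chr5:90891095-90891244 for Cxcl1, chr5:90903749-90903898 for Cxcl2, chr1:83116616-83116765 for Ccl20, chr17:35202008-35202157 for Tnf and chr5:90768368-90768517 for Ppbp. Cxcl1 and Cxcl2 shared the letters GGAATTTCC, at bases -70 to -62 and -96 to -88 before the start, which were searched on both strands and occurred in 104 of 32851 mouse promoter windows of 300 bases (0.317%). The wider NF-kB consensus, which overlaps those letters, was in 2779 of the windows (8.46%), and its match in Ccl20, at -80 to -71, is on the other strand. The windows of Tnf and Ppbp held no match, which says only that these letters are not in them.

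Depth was similar, with a median of 9086.5 UMIs in the 16420 dry eye cells (207030777 UMIs in all) and of 8248 UMIs in the 17465 control cells (191493194 UMIs in all). Of 13 deposited cell classes, 5 carry an asterisk whose meaning the sources used here do not give. They took 10.9% of dry eye cells and 0.985% of control cells, so that 8 classes had at least 100 cells in each library. Corneal epithelial markers (Krt12, Pax6, Aldh3a1, Krt5, Cdh1 and Epcam) summed to 33604 CPM (a gene's UMIs divided by the library's total and scaled to 1000000) in dry eye and 37264 CPM in control. Leukocytes were rare: the class Immune had 31 dry eye and 20 control cells, and 8 general leukocyte markers summed to 2.77 and 2.76 CPM. Some 74 cell barcodes occurred in both libraries.

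Over all cells, 8 of the 9 genes had at least 50 UMIs over both libraries. Among these, Cxcl14 and Ppbp were at least 2-fold higher in dry eye, and Cxcl1, Cxcl2, Ccl20 and Tnf at least 2-fold lower. Of 13997 genes with as many UMIs, 3.76% were at least 2-fold higher, 1.21% at least 2-fold lower and 4.97% either. The median log2 ratio was -0.88 over the 8 genes and -0.07 over all genes. The 4 genes that were lower and Ppbp are sparse, and how many cells carried them is given with each.

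**Figure D1:**
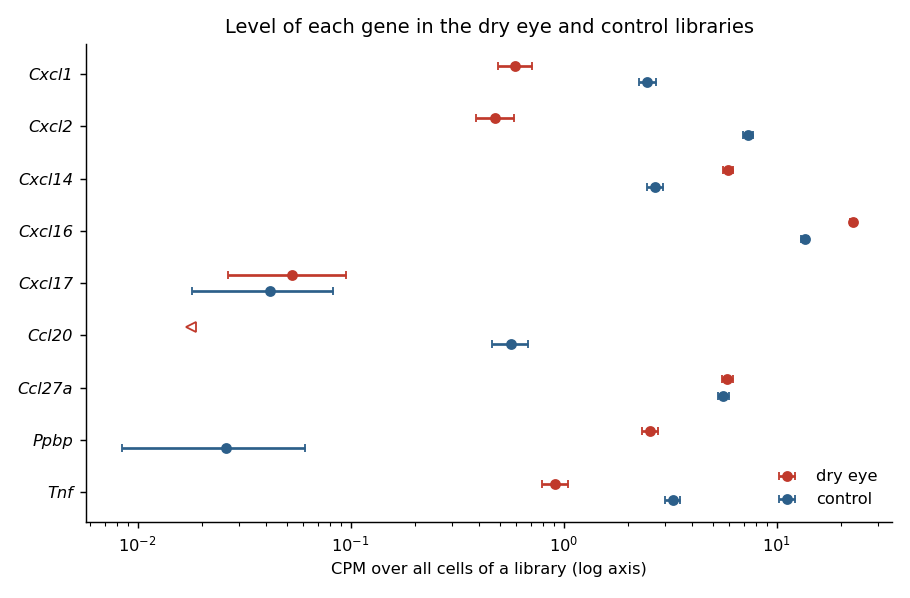
Level of each of the 9 genes over all cells of the dry eye library (red, upper point) and the control library (blue, lower point), in CPM on a log axis, with exact 95% Poisson intervals; the open triangle is the upper limit for Ccl20, which had 0 counts in dry eye. Ppbp, Cxcl14 and Cxcl16 sit to the right in dry eye, Cxcl1, Cxcl2, Ccl20 and Tnf to the right in control, and Ccl27a and Cxcl17 overlap.

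Cxcl2, which attracts neutrophils, had 99 UMIs in dry eye and 1400 UMIs in control. That is 0.478 CPM in dry eye and 7.31 CPM in control, a ratio of dry eye over control of 0.0654 (interval 0.0528 to 0.0802). Those counts lay in 8 dry eye cells and 21 control cells. The dry eye cells held 45, 31, 14 and 5 UMIs, and the other 4 cells 1 each. The highest 13 control cells held 372, 297, 251, 126, 95, 58, 54, 35, 34, 31, 20, 11 and 8 UMIs, and the other 8 cells 1 each. In dry eye the cells were of the classes LSC*, Wing* and Squam, and in control the 10 highest were 2 Wing* cells, 1 Conj cell and 7 Squam cells. The 10 highest cells held 100% of the counts in dry eye and 96.6% in control. No other gene among the 3311 with at least 500 and under 2000 control UMIs had so large a share in 10 cells, and the median gene of that range had 2.62%.

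Cxcl1, a close relative with the same receptor, had 123 UMIs in dry eye (0.594 CPM) and 473 UMIs in control (2.47 CPM), a ratio of 0.241 (0.196 to 0.294). It was spread more widely than Cxcl2, over 78 dry eye cells and 45 control cells. The 10 highest cells held 35.0% of its counts in dry eye, with at most 7 UMIs in a cell, and 91.5% in control, with 143, 142, 59, 48 and 20 UMIs in the 5 highest. Left without these 10 cells of each library, Cxcl1 had 80 UMIs in dry eye and 40 in control, and the ratio turned to 1.85 (1.25 to 2.78). Without the 10 cells of each library highest in Cxcl2, a choice made after seeing the data, the ratio was 1.39 (1.02 to 1.90). The direction for Cxcl1 thus rested on a few control cells.

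Elsewhere Cxcl1 was thinly spread. Basal cells held 25 UMIs in 18 cells of dry eye and 18 UMIs in 16 cells of control, at 1.27 and 0.668 CPM, a ratio of 1.89 whose interval (0.993 to 3.68) includes 1. In dry eye another 20 UMIs lay in 16 of 572 TAC2* cells, 17 in 8 of 446 Wing* cells and 28 in 8 of 85 LSC* cells. The share of all cells with a UMI was 0.475% in dry eye and 0.258% in control, and 0.185% and 0.122% once each cell was thinned to 3000 UMIs, with overlapping intervals. Squam* had none in 217 dry eye cells, which allows a share of up to 1.38%, and LSC none in 267 control cells, which allows up to 1.12%.

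Ccl20, which recruits dendritic cells and T cells bearing Ccr6, had 0 UMIs in 16420 dry eye cells and 108 UMIs in 6 of 17465 control cells. The control cells held 50 UMIs in a Conj cell and 31, 17, 6, 3 and 1 UMIs in 5 of the 12 Wing* cells. Set against a floor of 3 counts per library the level was at least 38.9-fold lower in dry eye, and at least 31.1-fold lower at the exact 95% limit of the ratio. Genes seen in 1 or 2 cells of the dry eye library were rarer (88 genes) than genes seen in 3 cells (517 genes) or in 0 cells (505 genes), so a 0 for a whole library may stand for counts in a couple of cells, and neither bound then holds.

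**Figure D2:**
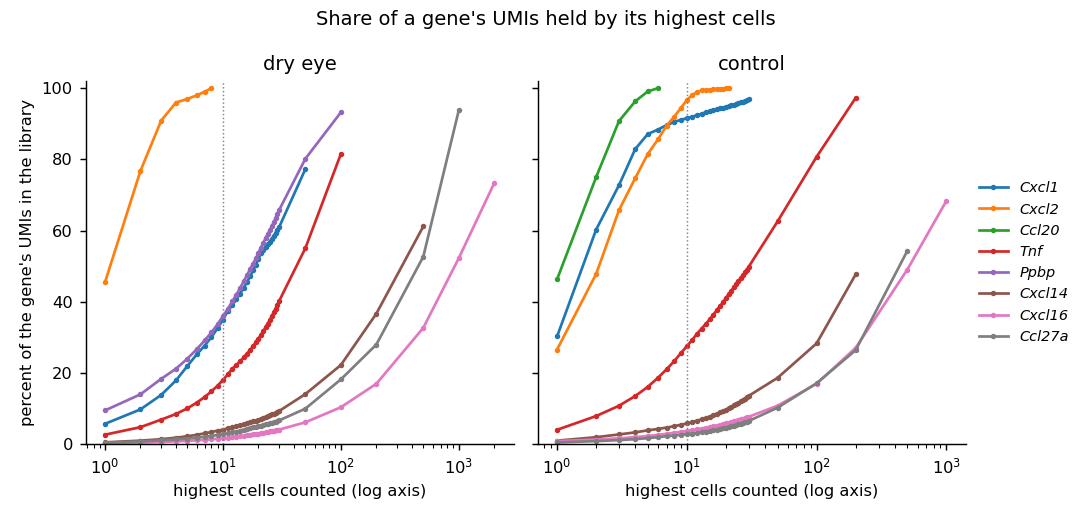
Percent of a gene's UMIs held by its highest cells, against the number of cells counted (log axis), in dry eye (left) and control (right); the dotted line marks 10 cells. In control, Cxcl1, Cxcl2 and Ccl20 reach 91.5% to 100% at 10 cells, while Cxcl14, Cxcl16 and Ccl27a reach 2.79% to 5.81%.

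The control cells high in 1 of these genes were often high in the others. Of the 21 control cells with Cxcl2, 8 had Cxcl1 and 14 had Tnf, which are found in 0.258% and 1.24% of all control cells. All 6 cells with Ccl20 had Tnf. Put the other way, the 217 control cells with Tnf held 99.5% of the library's Cxcl2 UMIs, 92.6% of its Cxcl1 UMIs and 100% of its Ccl20 UMIs. The 2 Wing* cells highest in Cxcl2 had 372 and 297 UMIs of it, 142 and 143 of Cxcl1, 17 and 31 of Ccl20 and 24 and 15 of Tnf. The 2 highest Squam cells had 126 and 95 UMIs of Cxcl2, 59 and 48 of Cxcl1, 14 and 16 of Tnf and 0 of Ccl20.

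The 10 control cells highest in Cxcl2 held 0 UMIs of the 8 leukocyte markers, Ptprc and Tyrobp included. The list of neutrophil genes was at 59.2 CPM in them and 4.05 CPM in the other control cells, with all 11 UMIs in the 2 Wing* cells. Only 4 of that list's 10 genes were counted. Of these Ly6g, Mmp8 and Cxcr2 had 3, 2 and 5 UMIs in all of control, so the list rested almost wholly on 1 gene. The list of monocyte and macrophage genes was at 673 CPM in the 10 cells and 74.2 CPM in the other control cells. Of its 125 UMIs in the 10 cells, 111 lay in the Conj cell and at most 2 in each other cell. Cd68 of that list was at 15.4 CPM over the whole control library. Krt12, the keratin of the corneal epithelium, was at 641 CPM in them and at 21668 CPM in the other control cells. Krt13, a keratin of the conjunctiva and of stratified mucosa, was at 5553 and 2026 CPM. It had 338, 235, 226, 109 and 93 UMIs in its highest cells and 10 or fewer in each of the others. As whole classes, control Squam was at 4600 CPM of Krt13 and control Conj at 5351 CPM. In the 10 cells and in the other control cells, the list of genes that Tnf induces stood at 10777 and 637 CPM. The list of early genes of stress and dissociation stood at 21402 and 2309 CPM in the same order. These lists are not separate, as both hold Ier3 and Zfp36. Over the whole control library these genes were at 151 and 118 CPM, where the list of genes that Tnf induces summed to 647 CPM. The growth factor Csf2 had 136 UMIs in the control library, of which 69 and 66 were in the 2 Wing* cells, and 8 in dry eye. What these markers contribute to the counts of Cxcl1, Cxcl2 and Ccl20 was not tested.

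Among these control cells were pairs that resembled each other more than any other cell of their class that was compared. The comparison took in 10 of the 12 control Wing* cells and 2986 of the 3056 control Squam cells. The mean chi-square per gene between the counts of 2 cells is near 1 where they differ by sampling alone. It was 1.46 over 747 genes for the 2 highest Wing* cells. Between the highest of them and any other Wing* cell compared it was 8.265 or more. For the 2 highest Squam cells it was 1.12 over 275 genes, and 4.796 or more between the highest of them and the others compared. Their barcodes differed at 11 and 15 bases. Like pairs occurred in dry eye, with 1.08 for 2 Squam* cells high in Ppbp. Whether such a pair is 1 cell counted under separate barcodes was not tested. With 1 cell of each of 5 such pairs left out, the ratio was 0.403 for Cxcl1, 0.0908 for Cxcl2 and 0.0365, at the floor, for Ccl20.

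Tnf had 189 UMIs in 135 dry eye cells (0.913 CPM) and 622 UMIs in 217 control cells (3.25 CPM), a ratio of 0.281 (0.238 to 0.331). Its counts lay in more cells than those of Cxcl1, Cxcl2 or Ccl20, but were still concentrated for a gene of such counts. The 10 highest cells held 18.0% of them in dry eye and 27.5% in control. In the range of control UMIs given for Cxcl2, 8 of 3311 genes, Tnf included, had so large a share, and the median was 2.62%. In dry eye 82 of 2222 genes of like counts were as concentrated, and the median share was 7.5%. Squam, a class high in the surface mucin gene Muc4, held 69.3% of the Tnf counts in dry eye and 77.3% in control. There Tnf had 131 UMIs in 94 of 2973 dry eye cells and 481 UMIs in 196 of 3056 control cells, at 3.77 and 13.9 CPM, a ratio of 0.271 (0.222 to 0.330) that was 0.276 (0.219 to 0.345) without the 10 highest cells of each library. The share of Squam cells with a UMI was 3.16% in dry eye and 6.41% in control, and 1.12% and 3.08% after thinning to 3000 UMIs. The median depth of the class was 9518 and 9342.5 UMIs. In Basal, whose cells had a median of 6126 and 5695 UMIs, it was 2 of 2857 dry eye cells (0.0700%) and 0 of 4230 control cells, which allows up to 0.0709%. Outside Squam, dry eye had 20 UMIs in 11 of 217 Squam* cells (5.50 CPM) and 12 UMIs in 9 of 446 Wing* cells (1.02 CPM). Control had 129 UMIs in 10 of only 12 Wing* cells and no Squam* cell.

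Squam was not uniform in Tnf, and the ratio depended on the Krt12 level of the cell, a split chosen after seeing the data. In the 407 dry eye and 767 control Squam cells with Krt12 below 4000 CPM, Tnf had 42 UMIs in 32 dry eye cells and 461 UMIs in 182 control cells. That is 10.2 and 57.7 CPM, a ratio of 0.177 (0.126 to 0.243). In the 2566 dry eye and 2289 control Squam cells with more Krt12, Tnf had 89 UMIs in 62 dry eye cells and 20 UMIs in 14 control cells. There the levels were 2.91 and 0.752 CPM, a ratio of 3.87 (2.36 to 6.63), in the opposite direction. Tnf was lower in dry eye among cells low in Krt12 and higher in dry eye among the rest.

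The level of Tnf was graded over 6 ranges of Krt12 rather than split in 2. With Krt12 below 1000 CPM, Tnf was at 14.3 CPM in 148 dry eye cells and 93.8 CPM in 216 control cells. At 1000 to 2000 CPM of Krt12 it was at 5.84 CPM in dry eye and 74.7 CPM in control, and at 2000 to 4000 CPM it was at 9.00 and 26.0 CPM. At 4000 to 8000 CPM the order turned, with 7.94 CPM in dry eye and 2.35 CPM in control, at 8000 to 16000 CPM it was 3.90 and 0.600 CPM, and from 16000 CPM upwards 1.30 and 0.0902 CPM. Control cells thus spanned a far wider range of Tnf than dry eye cells. Near the bound, 148 dry eye and 340 control cells lay between 2000 and 4000 CPM of Krt12 and 332 and 493 between 4000 and 8000 CPM. With the bound at 2000 CPM the ratio above it was 0.849 (0.644 to 1.12), and with the bound at 8000 CPM it was 6.54 (2.98 to 17.0). Krt12 itself was higher in dry eye Squam cells, at 17322 CPM, than in control ones, at 12305 CPM, and more of the control cells fell below the bound.

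**Figure D3:**
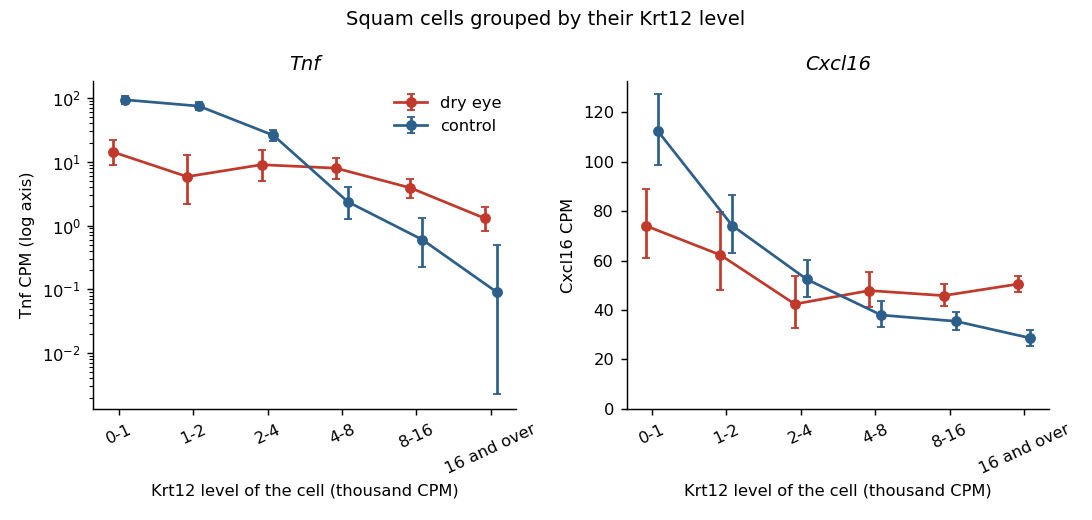
Tnf (left, log axis) and Cxcl16 (right) in Squam cells grouped by the Krt12 level of the cell, in CPM with exact 95% Poisson intervals, for dry eye (red) and control (blue). Both genes lie higher in control below 4000 CPM of Krt12 and higher in dry eye above it; for Cxcl16 the intervals overlap between 1000 and 8000 CPM.

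The Squam cells with Tnf differed from those without it, and by more in control. Krt12 in cells with Tnf over cells without it was 0.673 (0.664 to 0.683) in dry eye and 0.150 (0.146 to 0.155) in control. The NF-kB inhibitor Nfkbia stood at 1.36 (1.11 to 1.66) in dry eye and 13.4 (12.6 to 14.4) in control, and the ubiquitin-editing inhibitor Tnfaip3 at 3.83 (2.66 to 5.40) and 17.6 (14.1 to 22.0). Ltb, a membrane ligand of the same superfamily, stood at 5.89 (4.34 to 7.91) and 12.4 (9.65 to 16.0), and the RNase gene Zc3h12a, which degrades cytokine mRNAs, at 3.15 (2.41 to 4.05) and 10.5 (8.84 to 12.5). The receptor gene Tnfrsf1a stood at 0.966 (0.785 to 1.18) in dry eye and 0.282 (0.180 to 0.422) in control. Cells with Tnf had a median of 13825.5 UMIs in dry eye, against 9464 UMIs in cells without it, and of 9108.5 and 9371 UMIs in control. None of the cells with Tnf in this class had a UMI of Ptprc or Tyrobp. The Squam cells without Tnf held only 0 UMIs of Ptprc and 1 UMI of Tyrobp in each library, so this does not set the cells with Tnf apart.

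Genes that act with Tnf were set beside all genes with at least 50 UMIs. The 21 receptor and signalling genes with as many UMIs had a median log2 ratio of -0.06, beside -0.07 over all genes. Of them 0 were 2-fold higher and 0 were 2-fold lower in dry eye, near the 3.76% and 1.21% of all genes. Tnfrsf1a, the widely expressed receptor, was at 64.8 CPM in dry eye and 41.5 CPM in control, a ratio of 1.56 (1.52 to 1.60), and was highest in TAC2*. Birc3, an inhibitor of cell death that binds the receptor complex, had a ratio of 1.62 (1.48 to 1.78), and its relative Birc2 one of 0.777 (0.745 to 0.809). Tab1, a partner of the kinase downstream of the receptor, had a ratio of 0.825 (0.759 to 0.897). Tnfrsf1b, the receptor of leukocytes, had 7 UMIs in dry eye and 0 in control. The 18 feedback and target genes of Tnf had a median log2 ratio of 0.39. Of them 2 were 2-fold higher and 1 was 2-fold lower, beside 3.76% and 1.21% of all genes. These were Bcl3, an NF-kB cofactor, at 3.56 (3.32 to 3.82), Tnfaip2 at 5.59 (4.04 to 7.91) and Csf2 at 0.0544 (0.0230 to 0.110), which rests on the 2 control Wing* cells. The monocyte growth factor Csf1 had a ratio of 0.750 (0.627 to 0.897). Of 5 other ligands of the superfamily, 0 passed 2-fold in either direction, beside 4.97% of all genes. The lowest were Tnfsf13 at 0.599 (0.538 to 0.666) and Ltb at 0.947 (0.804 to 1.11). The highest were Tnfsf9 at 1.42 (0.935 to 2.19) and Tnfsf12, with 91 UMIs in dry eye and 56 in control.

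Ppbp, known as the platelet precursor of a neutrophil chemokine, went the other way over all cells from Cxcl1 and Cxcl2 of the same chromosome stretch. The direction for Cxcl1 rested on a few control cells, as given above. Ppbp had 529 UMIs in 136 dry eye cells (2.56 CPM) and 5 UMIs in 5 control cells (0.0261 CPM), a ratio of 97.9 (41.7 to 303). The 10 highest dry eye cells held 50, 24, 23, 15, 15, 14, 13, 12, 12 and 12 UMIs, or 35.9% of the counts. The classes with an asterisk held 74.7% of them. Wing* had 260 UMIs in 44 of 446 cells (22.0 CPM), Squam* 78 UMIs in 24 of 217 cells (21.4 CPM) and LSC* 50 UMIs in 7 of 85 cells (30.9 CPM). TAC1* and TAC2*, which also carry an asterisk, were at only 0.491 and 0.610 CPM in dry eye. Wing, Squam and LSC were much lower than Wing*, Squam* and LSC*. Wing had 52 UMIs in dry eye and 1 in control, Squam 43 and 1, and LSC 18 and 0. Without the classes with an asterisk the ratio was 28.7 (12.0 to 89.7), on 134 UMIs in dry eye and 5 in control. In TAC1 Ppbp had a UMI in 0 of 1136 dry eye cells, which allows up to 0.264%, at a median depth of 8554 UMIs.

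The dry eye cells with Ppbp held 0 UMIs of the leukocyte genes Ptprc and Tyrobp. These were at only 0.0737 and 0.555 CPM in the other cells. In the 10 cells highest in Ppbp the 8 leukocyte markers held 1 UMI, at 3.44 CPM beside 2.77 CPM in the rest. Lists of neutrophil (13.8 and 4.94 CPM) and monocyte and macrophage genes (103 and 84.6 CPM) were also higher there. So was that of dendritic and Langerhans cells (258 and 156 CPM). Lists of T and NK cell (0 and 1.63 CPM) and mast cell genes (13.8 and 57.4 CPM) were lower. Of the 7 platelet genes listed, 4 were counted, Ppbp among them. The list held 191 UMIs in the 10 cells highest in Ppbp, of which 190 were of Ppbp. Pf4 had 0 UMIs in all of dry eye, which, as for Ccl20, may stand for counts in a couple of cells. Itga2b was at 7.54 CPM in the cells with Ppbp and 18.4 CPM in the other cells, and Gp1bb at 1.74 and 2.29 CPM. Krt12 was at 16264 CPM in them and 19369 CPM in the other dry eye cells. The cells with Ppbp were deeper, with a median of 17107 UMIs against 9053. The same cells held 86.5% of the dry eye UMIs of Cxcl3 and 87.5% of those of Cxcl5, further ligands of Cxcr2, though in only 17 and 9 of the 136 cells. Cxcl1 was at 3.48 CPM in the cells with Ppbp and 0.545 CPM in the others, and the sheddase gene Adam8 at 19.7 and 1.15 CPM. Cxcl2 was likewise higher in the cells with Ppbp, at 13.3 and 0.260 CPM, with 46 UMIs in 3 of these cells. Of the 136 cells with Ppbp, 82 were of classes with an asterisk, which took 10.9% of all dry eye cells. Adam8 was at 55.0 CPM in LSC* and 9.07 CPM in Wing* of dry eye, beside 2.34 CPM in LSC and 0.175 CPM in Wing. How much of these differences goes with the class of the cells was not tested. Over all cells Cxcl3 had 274 UMIs in dry eye and 12 UMIs in control, a ratio of 21.1 (11.9 to 41.4), with 88.0% of the dry eye counts in 10 cells. Cxcl5 had 40 UMIs in dry eye and 0 in control.

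Cxcl14, a chemokine that healthy epithelia make without stimulation, was a gene of the basal and dividing classes and was carried by many cells. It had 1225 UMIs in 976 dry eye cells (5.92 CPM) and 516 UMIs in 470 control cells (2.69 CPM), a ratio of 2.20 (1.98 to 2.44). At most 6 UMIs in dry eye and 5 in control lay in a single cell. In dry eye TAC2* and TAC1* were highest, at 24.9 and 24.7 CPM, followed by Basal, TAC2 and TAC1 at 13.6, 13.3 and 13.1 CPM, with overlapping intervals within each set. Wing* was at 5.60 CPM, and LSC, Wing, Conj, Squam* and Squam lay between 2.58 and 0.345 CPM. In control TAC1*, TAC1 and Basal stood together at 9.71, 9.66 and 9.65 CPM, above TAC2 at 6.59 CPM. The other control classes with at least 100 cells were at 0.638 CPM or less.

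The higher level of Cxcl14 in dry eye was seen within most of these classes. The ratio was 3.19 (2.26 to 4.57) in Wing, 2.54 (1.47 to 4.76) in TAC1*, 2.03 (1.58 to 2.62) in TAC2, 1.41 (1.18 to 1.67) in Basal and 1.36 (1.03 to 1.81) in TAC1. In Conj it was 0.969 (0.437 to 2.19), on 16 UMIs in dry eye and 13 in control. The classes with an asterisk held 33.3% of the dry eye counts and 3.29% of the control counts, and without them the ratio was 1.75 (1.56 to 1.96). By Pearson correlation of log2(CPM + 1) over 19 class-by-library groups, which share depth and cells, the nearest of 9955 genes were Glyat (r = 0.971), Slc16a9 (0.962) and Fscn1 (0.941).

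**Figure D4:**
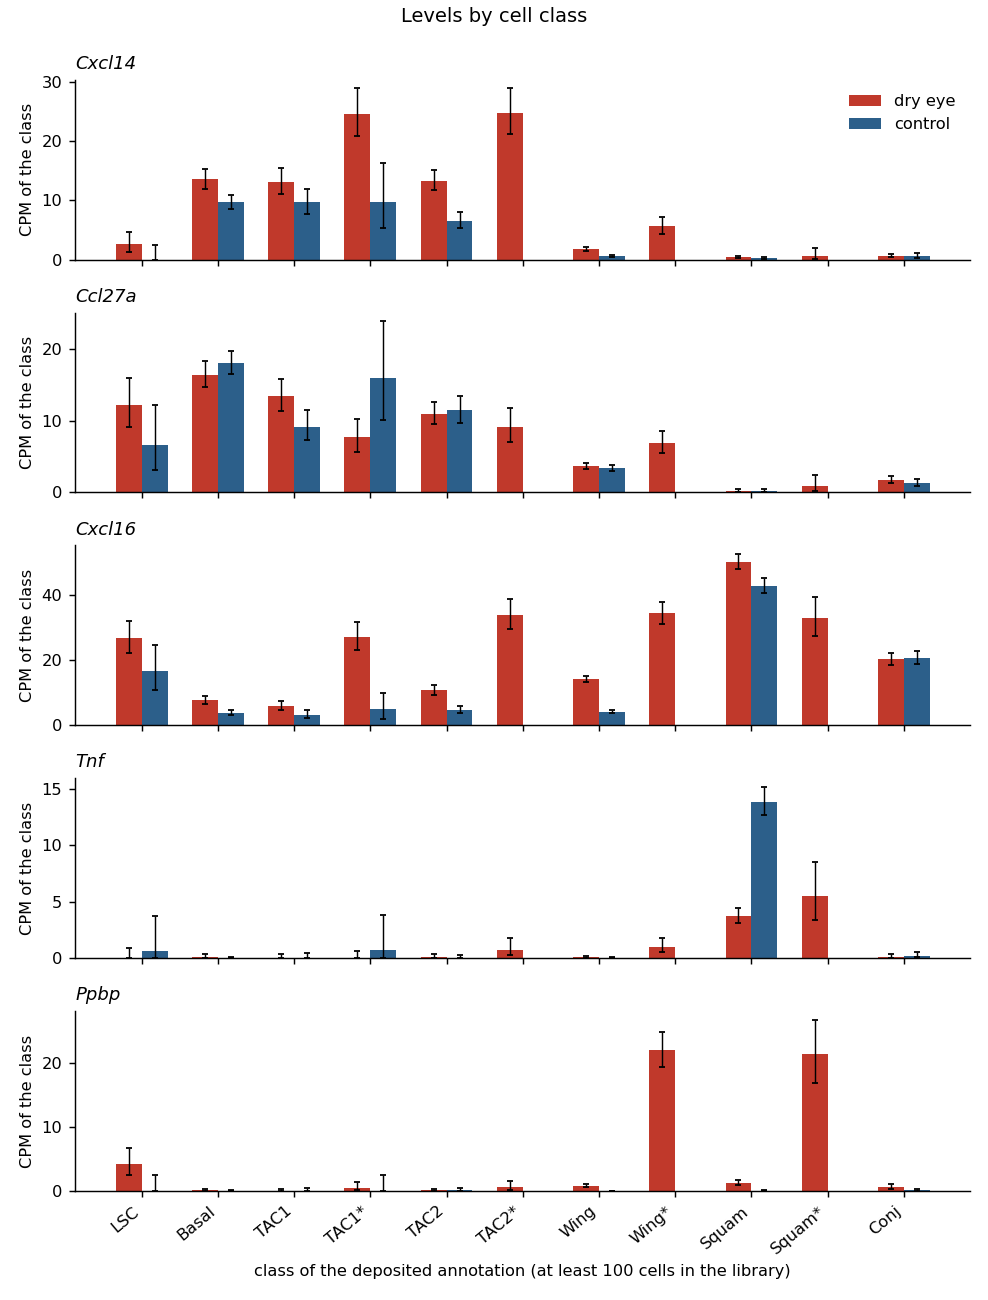
Levels of Cxcl14, Ccl27a, Cxcl16, Tnf and Ppbp in each cell class with at least 100 cells in the library, in CPM of the class with exact 95% Poisson intervals, dry eye in red at the left of each pair and control in blue. Cxcl14 and Ccl27a are high in Basal and the TAC classes, Cxcl16 and Tnf in Squam, and Ppbp in Wing* and Squam* of dry eye.

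Cxcl16 was widely detected, with a UMI in 3262 dry eye cells and 1820 control cells. It had 4735 UMIs in dry eye (22.9 CPM) and 2589 UMIs in control (13.5 CPM), a ratio of 1.69 (1.61 to 1.78), short of 2-fold. Its 10 highest cells held 1.65% of the counts in dry eye and 3.67% in control. Squam was the highest epithelial class with at least 100 cells in both libraries, at 50.1 CPM in dry eye and 42.7 CPM in control. In dry eye it was followed by Wing*, TAC2* and Squam* at 34.2, 33.9 and 33.0 CPM, whose intervals overlap, and then by TAC1*, LSC, Conj and Wing at 27.2, 26.7, 20.2 and 14.2 CPM. In control Conj followed at 20.5 CPM and LSC at 16.6 CPM, and the other classes with at least 100 cells lay between 3.26 and 4.86 CPM. The few cells of the class Immune had 480 CPM in dry eye and 790 CPM in control, on 24 and 28 UMIs, with overlapping intervals.

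Among the 8 classes with at least 100 cells in each library, Cxcl16 was higher in dry eye in each other than Conj. The ratio was 5.59 (2.65 to 14.1) in TAC1* on 166 and 7 UMIs, 3.40 (3.00 to 3.86) in Wing, 2.27 (1.70 to 3.07) in TAC2, 2.03 (1.57 to 2.64) in Basal, 1.82 (1.15 to 2.94) in TAC1 and 1.61 (1.03 to 2.58) in LSC. In Squam it was 1.17 (1.09 to 1.26), and in Conj 0.985 (0.864 to 1.12). The share of Wing cells with a UMI was 17.8% in dry eye and 5.41% in control, and 4.77% and 0.968% after thinning to 3000 UMIs. In Basal, the class with the lowest share, it was 4.80% and 2.27%.

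Cxcl16 in Squam also turned with the Krt12 level of the cell. Below 4000 CPM of Krt12 it was at 59.2 CPM in dry eye and 74.6 CPM in control, a ratio of 0.794 (0.681 to 0.923). At or above that bound it was at 48.8 CPM in dry eye and 33.2 CPM in control, a ratio of 1.47 (1.35 to 1.60). With the bound at 8000 CPM the lower part had a ratio of 0.901 (0.799 to 1.01), whose interval includes 1. In cells with Tnf over Squam cells without it, Cxcl16 stood at 1.44 (1.19 to 1.73) in dry eye and 2.47 (2.13 to 2.86) in control. The genes nearest to Cxcl16 over the 19 groups were B4galnt1 (r = 0.938), Ly6a (0.930) and St3gal1 (0.923).

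Ccl27a, best known from skin, where it draws T cells bearing Ccr10, was level between the libraries over all cells. It had 1216 UMIs in 1076 dry eye cells (5.87 CPM) and 1076 UMIs in 992 control cells (5.62 CPM), a ratio of 1.05 (0.962 to 1.14). Like Cxcl14 it was a gene of the lower layers, at 16.5 CPM in dry eye and 18.1 CPM in control in Basal, and at 0.259 and 0.231 CPM in Squam. In TAC1 it was at 13.5 CPM in dry eye and 9.19 CPM in control, a ratio of 1.47 (1.11 to 1.96), and in TAC1* at 7.69 and 16.0 CPM, a ratio of 0.482 (0.287 to 0.832). The TAC1* ratio rested on 47 UMIs in dry eye and 23 in control, and its interval included 1 without the 10 highest cells, at 0.707 (0.339 to 1.61). In Basal, TAC2, Wing, LSC and Conj the intervals included 1. Some 45.0% of the 50-base words of its annotated transcripts (GENCODE vM21) occur also in 5 other genes, among them Ccl27b, so reads could be split between copies and its counts are uncertain. Adarb1 (r = 0.982), Lhpp (0.976) and Maoa (0.976) were nearest to it over the 19 groups.

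Cxcl17, a chemokine of mucosal surfaces, was too rare to compare, with 11 UMIs in 10 dry eye cells and 8 UMIs in 8 control cells. The interval of its ratio reached 0.466 at the low end and 3.64 at the high end. LSC held 4 of the dry eye UMIs and TAC2 3 of the control UMIs, and Squam had 0 in both libraries.

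The members past 2-fold differed between classes. In Wing, 3 of 4 members with at least 50 UMIs were higher in dry eye (Cxcl14, Cxcl16 and Ppbp) and 0 were lower, where 2.37% of genes were higher and 1.01% lower. In TAC2, 2 of 3 were higher (Cxcl14 and Cxcl16) and 0 lower, beside 1.28% and 0.685% of genes. TAC1* had the same pair higher and Ccl27a lower, beside 6.31% and 5.3% of genes. In Basal 1 of 3 was higher (Cxcl16) and 0 were lower, beside 0.64% and 0.46% of genes. In Squam 0 of 4 were higher and 3 were lower (Cxcl1, Cxcl2 and Tnf), beside 1.71% and 2.99% of genes. Without the 10 highest Squam cells of each library, Cxcl1 had 0 UMIs in dry eye and 3 in control and Cxcl2 had 0 and 2, too few for a ratio. In Conj 0 of 4 were higher and 2 were lower (Cxcl2 and Ccl20), beside 0.837% and 0.158% of genes, and both rested on 1 control cell. In TAC1, 0 of 3 passed in either direction, beside 0.611% higher and 0.19% lower, and in LSC 0 of 2, beside 0.947% and 1.13%.

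The receptors of these ligands were scarce in the suspension. Cxcr2 had 5 UMIs in dry eye and 5 in control, Cxcr6 had 8 and 0, and Ccr6 had 0 and 4. Ccr10, the receptor of Ccl27a, had 31 UMIs in dry eye and 24 in control, a ratio of 1.19 (0.679 to 2.13). Ackr3, a scavenging receptor of other chemokines, was at 7.91 CPM in dry eye and 7.72 CPM in control, and was highest in LSC*. Ccr9 had 520 UMIs in dry eye and 479 in control, and Cx3cr1, a receptor of macrophages and Langerhans cells, one of 0.590 (0.417 to 0.828). Of 4 receptor genes with at least 50 UMIs, 0 were 2-fold higher or lower, beside 4.97% of all genes.

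Enzymes that release Cxcl16 and Tnf from the membrane were present throughout. Adam10 was at 39.6 CPM in dry eye and 39.5 CPM in control, and Adam17 at 28.6 and 30.0 CPM. Of 9 sheddases and cofactors, 1 was 2-fold higher and 0 were lower, beside 3.76% and 1.21% of all genes. That gene was Adam8, at 8.46 (5.90 to 12.5), with its highest level in LSC*. Tspan15 and Tspan33, tetraspanins that carry Adam10 to the surface, had ratios of 0.676 (0.649 to 0.705) and 0.691 (0.630 to 0.757), and Tspan14 of the same family one of 1.04 (0.987 to 1.09). Among the 4 other CC, XC and CX3C chemokines with at least 50 UMIs, 1 was 2-fold higher and 0 were lower, beside the same shares of all genes. That was Ccl5, with 62 UMIs in dry eye and 3 in control, all of them in 10 cells or fewer of each library. Cx3cl1, a membrane-bound chemokine of epithelium and endothelium, had a ratio of 0.712 (0.667 to 0.760), Ccl25 one of 0.846 (0.757 to 0.945) and Ccl6 one of 1.01 (0.859 to 1.19).

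Early genes of stress and dissociation, which trypsin treatment can raise, had a median log2 ratio of 0.04, beside -0.07 over all genes. Of 19 such genes 2 were at least 2-fold higher in dry eye and 0 lower, beside 3.76% and 1.21% of all genes. The 2 higher genes were Ptgs2, at 61.8 (26.2 to 192), and Fosl1, at 3.70 (2.80 to 4.95). Hspa1a, a heat shock gene, had a ratio of 0.700 (0.689 to 0.711), and Zfp36, which shortens the life of the Tnf mRNA, one of 0.888 (0.871 to 0.905).

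**Figure D5:**
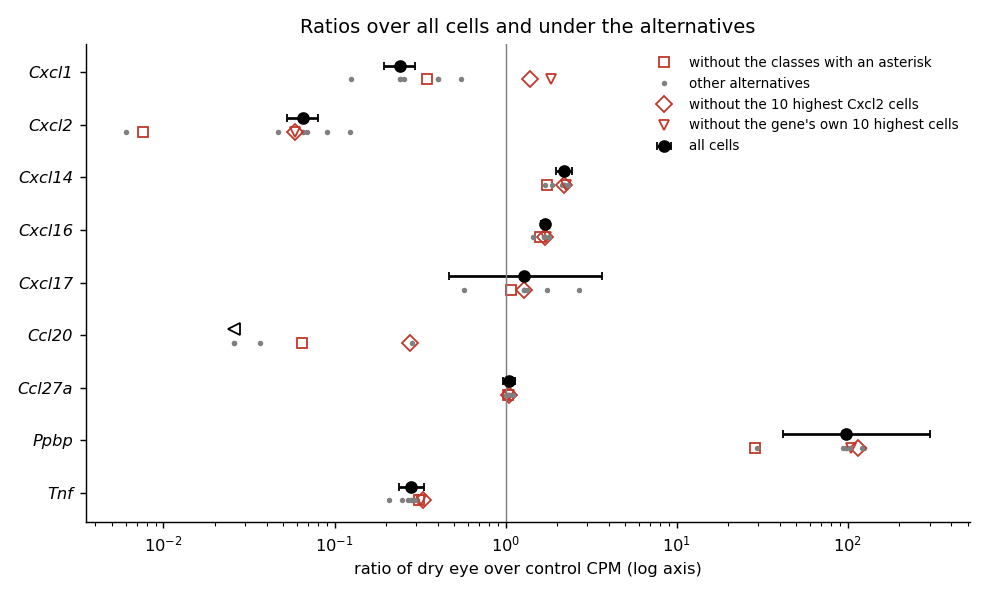
Ratio of dry eye over control CPM of each member over all cells (black, with the exact 95% interval; the open triangle is the value at the floor for Ccl20) and under the alternatives (grey, and red open symbols for the named ones), on a log axis with a line at 1. Cxcl1 crosses the line to 1.85 and 1.39 without its own or the highest Cxcl2 cells, while Cxcl14, Cxcl16, Ppbp and Tnf keep their side under each alternative drawn.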

How the data were processed

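Per the labels' protocols, both pools were made into 10x Genomics Chromium 3′ v3.1 libraries. The submitters' processing notes name Cell Ranger 6.0.1, Seurat 4 and the build mm10, with no role or order. The authors deposited a table of raw whole-number UMI counts with genes in rows and cells in columns, and a table with the library and class of each cell. That second table also holds 2 map coordinates per cell, scores that the authors deposited and that were not used. The sources used here do not say how cells, genes and doublets were filtered, and no doublet caller was run here.

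Counts were summed per library or class and divided by its total (CPM), so 1 UMI was worth 0.00483 CPM in dry eye and 0.00522 CPM in control. Ratios carry exact Clopper-Pearson intervals on the split of both counts, levels exact Poisson intervals, and a count of 0 a floor of 3 counts per library, all covering counting error only. Ratios within a class needed 100 cells in each library and counts of genes past 2-fold 50 UMIs. No p-value was computed. Pairs of like cells were sought by the mean Pearson chi-square per gene over genes with at least 10 summed counts, taken as near-identical under 1.5 with the next cell at least 2 times as far. The interval calculation was tested on simulated counts. Python 3.11.15, numpy 2.4.6, scipy 1.17.1 and pandas 2.3.3 were used.

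The members and all gene lists were chosen with earlier results of these data known. Named were all members, of each pathway list the 2 highest and 2 lowest ratios with at least 50 UMIs and a UMI in both libraries, and the 3 genes most like Cxcl14, Cxcl16 and Ccl27a. Other genes, such as those compared between cells with and without Tnf or Ppbp, were chosen after values had been seen. The separate value of 1 gene of a marker list is not reported here.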

Additional observations from a re-analysis of the deposited data

Results flagged for a closer look

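Ccl27a went in opposite directions in neighbouring classes: dry eye over control was 1.47 in TAC1 and 0.482 in TAC1*, with intervals on either side of 1. The difference between the classes was not tested, and TAC1* had 133 control cells. Without the 10 highest cells of each library the TAC1* ratio was 0.707 (0.339 to 1.61), whose interval includes 1. Within Squam, Tnf and Cxcl16 had opposite directions in cells of low and high Krt12. Below 4000 CPM of Krt12 the ratios were 0.177 for Tnf and 0.794 for Cxcl16, and at or above it 3.87 for Tnf and 1.47 for Cxcl16, again with intervals on either side of 1. With 1 library per group these differences were not tested either, and the bound of 4000 CPM was chosen after seeing the data.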

How the results depend on the processing

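No paired analysis was possible because the labels give no replicate numbers and each group is 1 library. Of 85 values of the ratios over all cells under alternatives, 60 stayed within the interval, 23 moved outside it in the same direction and 2 reversed: Cxcl1 at 1.85 without its own 10 highest cells and 1.39 without the 10 highest Cxcl2 cells, of which the second was chosen after seeing the data. The 2 members at least 2-fold higher became 1 without the classes with an asterisk, with dry eye classes weighted to the control shares, or with a mean over cells, where Cxcl14 stood at 1.75, 1.69 and 1.85. The 4 lower members became 2 without the 5% of cells with the most UMIs, 1 without each gene's own 10 highest cells and 1 without the 10 highest Cxcl2 cells. In both of the last, Cxcl2 fell under the minimum of 50 UMIs while its ratio, with dry eye at the floor, was 0.0591. Without the deepest 5% Cxcl1 stood at 0.548, Cxcl2 at 0.123 and Ccl20, at the floor, at 0.284. Shares of all genes past 2-fold under these alternatives are not given here, so the changed counts of members cannot be set beside them. The causes were not tested. Within classes 18 of 24 values stayed within the interval, 5 moved and 1 reversed, Tnf in Squam cells with Krt12 of at least 4000 CPM, at 3.87. Thinning each cell to 3000 UMIs lowered the shares of cells with a UMI in both libraries. Ccl20 could not be given a value under weighting, a mean over cells, median-ratio scaling or without its own 10 highest cells. A difference under about the width of the printed intervals was not detectable at this depth, and no interval covers the spread between animals.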
